A study of Mus musculus with 6 samples.

Results

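The study sequenced RNA of mouse CD8+ T cells to ask what palmitate, a saturated long-chain fatty acid, does to them. The 9 genes described here are used as markers of B cells and antibody-secreting cells, though other cells also make some of them. They were chosen by name for the cells they mark, with earlier results of these data known: Jchain, Igha, Ighm, Igkc, Cd79a, Cd79b, Mzb1, Ms4a1 and Cd74, 9 of the 29370 genes in the authors' gene matrix. Cells of the labelled type CD8+ T cell, genotype WT (wild type), were taken from the pancreas, spleen and lymph nodes, and RNA was collected at 48 h. There were 3 libraries of palmitate-treated cells (100 µM) and 3 of control cells, with replicate numbers 1 to 3 in both groups. The treatment text names palmitate for all 6 samples, and no source used here says what the control medium held in its place. Nor do these sources say how the CD8+ cells were separated from other cells, how old the mice were or whether tissues were pooled.

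A B cell carries on its surface an antibody made of paired heavy and light chains, held in the membrane by the tail of the heavy chain and coupled to signalling by the partners Cd79a and Cd79b. When it matures into an antibody-secreting cell it makes the heavy chain with a secreted tail instead, adds the joining chain (Jchain) to pentameric IgM and dimeric IgA, and fills its endoplasmic reticulum with folding factors such as Mzb1. Each antibody chain is built from a rearranged variable segment joined to a constant gene, a rearrangement that T cells do not make productively at these loci, although transcripts of the unrearranged Ighm locus can be made in T cells.

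CD8 T cell markers were abundant in all 6 libraries. Their summed level over 8 genes was 1807, 1579 and 1749 CPM (gene matrix counts put on a common total with scaled library sizes) in the control libraries and 2201, 2027 and 2101 CPM in the palmitate libraries, while 4 CD4 T cell markers summed to between 1.96 and 6.72 CPM. Gene matrix totals ran from 16724588 to 29362276 counts. At that depth 3 counts, the upper limit that a count of 0 allows, came to between 0.103 and 0.179 CPM per library, a limit that covers counting error only. All 6 libraries, including the shallowest, palmitate 3, entered every fit.

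The tail that a heavy chain carries is written in the end of its transcript, so the sequences that separate the membrane and secreted forms are shown first. They come from the GENCODE M21 transcripts (mouse build GRCm38), read 5′ to 3′, in lower case for the last 18 coding bases the forms share and in capitals for the coding bases of that form alone. The Ighm forms share 1305 coding bases, and those of Igha share 972.
Ighm-201, secreted: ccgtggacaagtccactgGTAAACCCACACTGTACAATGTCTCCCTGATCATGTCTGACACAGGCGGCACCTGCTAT
Ighm-202, membrane: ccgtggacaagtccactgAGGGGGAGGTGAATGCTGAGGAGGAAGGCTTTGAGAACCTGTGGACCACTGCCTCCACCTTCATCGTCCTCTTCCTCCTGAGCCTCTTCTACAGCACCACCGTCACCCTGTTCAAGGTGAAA
Igha-201, secreted: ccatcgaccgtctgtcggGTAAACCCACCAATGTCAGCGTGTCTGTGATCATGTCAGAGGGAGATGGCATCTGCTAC
Igha-202, membrane: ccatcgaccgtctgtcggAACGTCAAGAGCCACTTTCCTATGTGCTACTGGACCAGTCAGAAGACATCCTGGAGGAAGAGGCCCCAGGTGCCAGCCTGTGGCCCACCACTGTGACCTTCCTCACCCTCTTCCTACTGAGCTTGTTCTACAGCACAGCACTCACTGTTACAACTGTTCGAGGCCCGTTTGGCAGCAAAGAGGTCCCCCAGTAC
The secreted tails of both heavy chains have 59 coding bases of their own, and the membrane tails have 122 in Ighm and 194 in Igha.

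All 9 genes had a higher fitted level with palmitate, as had 6287 of the 12068 tested genes. The test was passed by 3 of the 9, Igha, Jchain and Cd79a. Cd79a met the filter on low counts only through the palmitate libraries, so the filter favoured its place in these counts. Igha rose by 3.19 on the log2 scale, Jchain by 2.45 and Cd79a by 1.95. The other 6 genes did not pass in the comparison by group alone. Of these, 3 (Igkc, Ighm and Ms4a1) passed once libraries of the same replicate number were taken as pairs, which the labels do not state. The test called 22.9% of the 12068 tested genes, 11.1% of them as higher with palmitate, at an adjusted p under 0.05 by edgeR (quasi-likelihood F test, p-values adjusted by Benjamini and Hochberg). With the replicate number as a block it called 33.1%, 16.5% as higher. The median log2 fold change over the 9 genes was 1.66, and over all tested genes it was 0.019. Between the groups, 5 of the 9 genes (Jchain, Igha, Ighm, Igkc and Cd79a) had all 3 palmitate libraries above all 3 controls in CPM, as had 21.6% of all tested genes, and those 5 and Ms4a1 (6 of 9) were higher in all 3 same-number pairs, as were 32.4%. In bulk RNA a change in the number of cells of a type cannot be told apart from a change in RNA per cell.

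**Figure D1:**
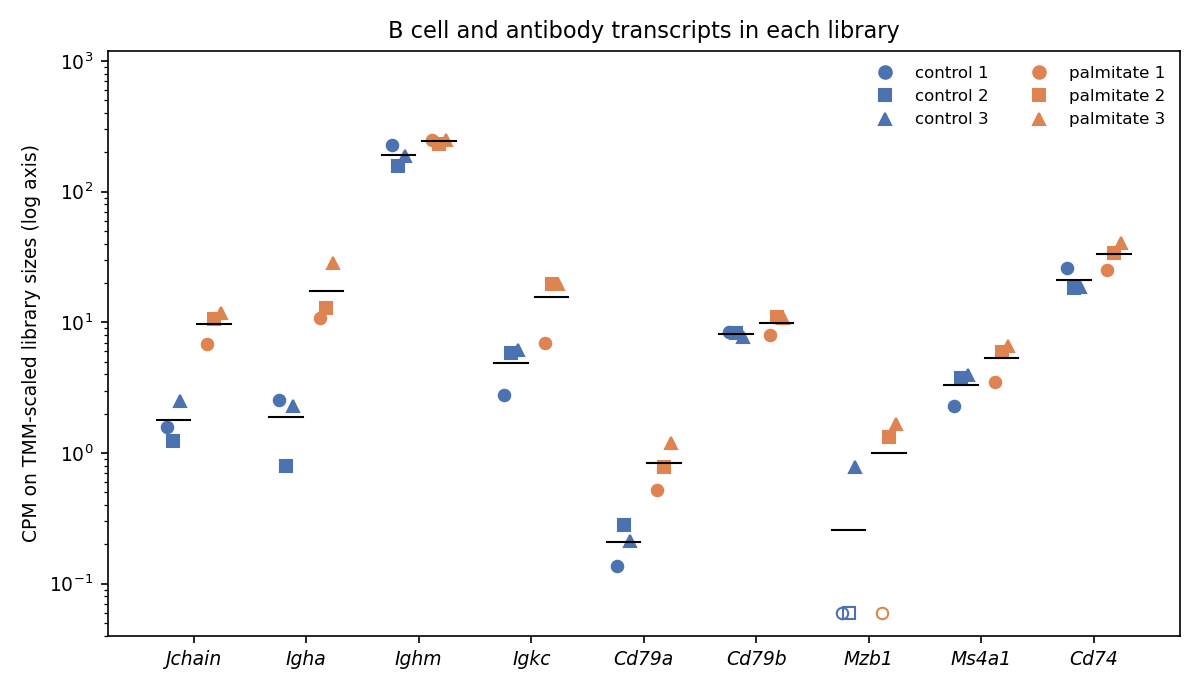
Level of each of the 9 genes in each library, in CPM on a log axis, with controls and palmitate side by side, symbol shapes for replicate numbers 1 to 3 and a bar at each group's mean. Open symbols at the foot of the Mzb1 column are libraries with 0 counts. Igha, Jchain, Igkc, Ighm and Cd79a do not overlap between the groups, with Igkc (6.10 against 6.98 CPM) and Ighm nearly touching, and Cd79b and Cd74 overlap.

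**Figure D2:**
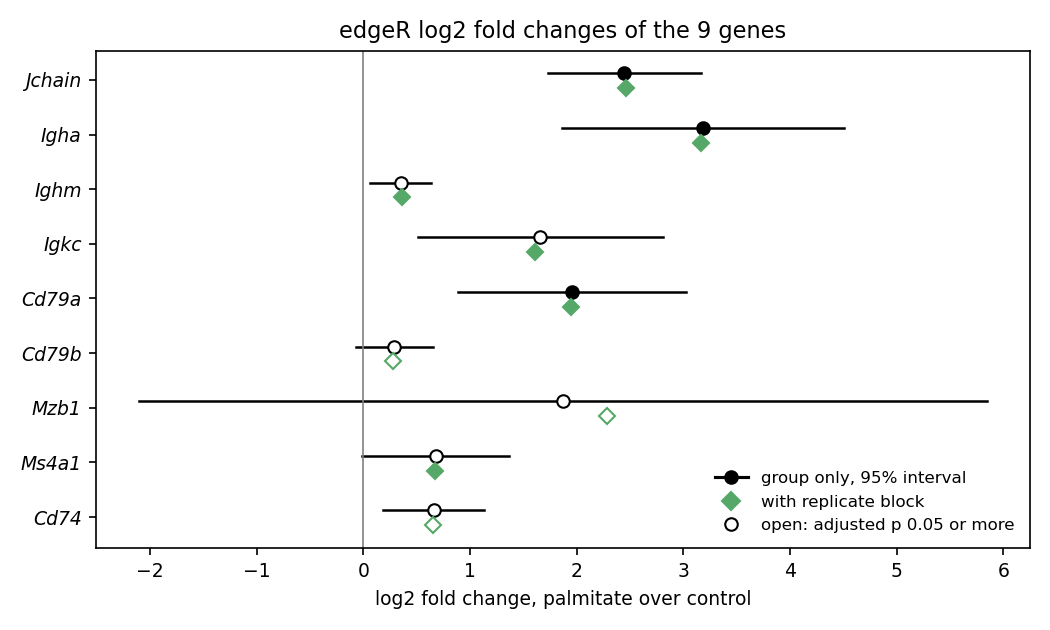
Log2 fold change of each gene, palmitate over control, from the fit by group alone (circles, with 95% intervals) and from the fit with the replicate block (diamonds), with open symbols where the adjusted p is 0.05 or more. Igha, Jchain and Cd79a are filled in both fits, and the interval of Mzb1 reaches from -2.11 to 5.85.

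Igha, the constant gene of the IgA heavy chain (ENSMUSG00000095079), was at 2.55, 0.802 and 2.29 CPM in control libraries 1, 2 and 3. In palmitate libraries 1, 2 and 3 it was at 10.8, 12.9 and 28.5 CPM. The groups did not overlap, and palmitate library 3 stood above the other two. The means were 1.88 ± 0.942 and 17.4 ± 9.69 CPM (SD, n = 3 each), a log2 fold change of 3.19 ± 0.55 (SE; edgeR adjusted p = 0.0129, higher in 3 of 3 pairs). Without control library 3 the adjusted p was 0.0612, with a log2 fold change of 3.34.

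Nearly all Igha reads fell on the secreted form. Salmon placed 100%, 100% and 98.2% of them on Igha-201 in the controls and 100%, 97.5% and 100% in the palmitate libraries. The membrane form Igha-202, whose own tail is shown above, received 1.18 reads in control library 3, 8.09 reads in palmitate library 2 and 0 in the other 4 libraries. This division is Salmon's estimate, for transcripts of 1100 bases (Igha-201) and 2540 bases (Igha-202) that share 972 coding bases.

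Jchain, the joining chain of polymeric IgA and IgM (ENSMUSG00000067149), had 46, 31 and 71 counts in the control libraries and 168, 272 and 198 in the palmitate libraries. That was 1.58, 1.24 and 2.50 CPM against 6.78, 10.7 and 11.8 CPM, with no overlap. The log2 fold change was 2.45 ± 0.31 (SE; 95% interval 1.73 to 3.16; edgeR adjusted p = 0.00378), and the call held without any 1 of the 6 libraries (adjusted p at most 0.0195). Within the pairs of the same replicate number palmitate was 4.28, 8.60 and 4.72 times the control. The protein-coding transcript Jchain-201 carried 81.8%, 87.9% and 72.5% of the reads in controls and 89.9%, 98.3% and 98.5% with palmitate, the rest being a form that retains an intron.

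Ighm, the constant gene of the IgM heavy chain (ENSMUSG00000076617), was by far the most abundant of the 9. It was at 227, 157 and 188 CPM in the controls and 247, 231 and 250 CPM in the palmitate libraries, so the lowest palmitate library lay just above the highest control. Its log2 fold change was 0.35 ± 0.13 (SE; 95% interval 0.06 to 0.64) with an edgeR adjusted p = 0.0801, and the fit with the replicate block gave 0.36 with an adjusted p = 0.0181. Without control library 1 the group fit passed, at 0.49 with an adjusted p = 0.011.

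Ighm reads fell mainly on the membrane form. Its share was 64.2%, 61.9% and 63.9% in the controls and 69.2%, 61.5% and 63.1% in the palmitate libraries. The mean share was 63.3 ± 1.24% and 64.6 ± 4.06% (SD, n = 3 each), a difference smaller than the spread among the palmitate libraries. Per length, the membrane form was at 77.5 ± 16.0 TPM (a level that allows for transcript length) in controls and 104 ± 12.5 TPM with palmitate, and the secreted form at 52.8 ± 8.47 and 66.8 ± 4.44 TPM. Thus the heavy chain gene with the larger change, Igha, was read almost wholly in its secreted form, and Ighm mostly in its membrane form.

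**Figure D3:**
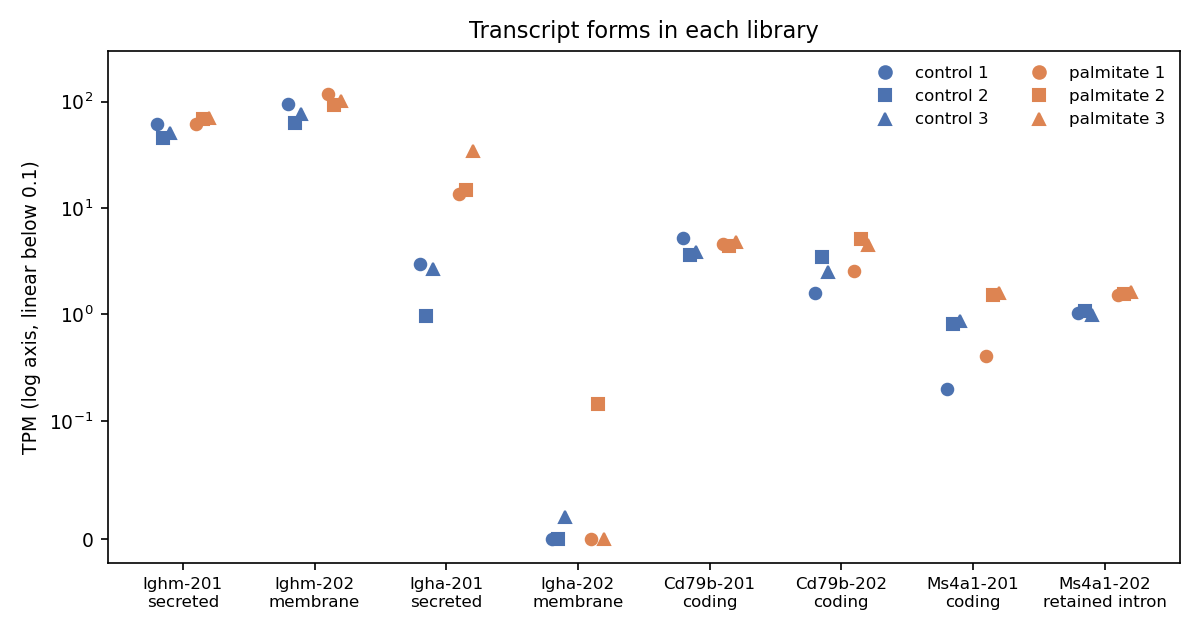
Level in TPM of transcripts of Ighm, Igha, Cd79b and Ms4a1 in each library, controls beside palmitate, with symbol shapes for replicate numbers. Both Ighm forms lie above both Igha forms in every library, and Igha-201 differs between the groups while Igha-202 stays at or near 0.

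No transcript of the 9 genes passed at the transcript level, where 0 of 39731 tested transcripts were called by edgeR (0%) and 6297 had an unadjusted p under 0.05. The log2 fold change of Jchain-201 was 2.70 ± 0.34 (SE) with an edgeR adjusted p = 0.0613. Igha-201 stood at 3.17 ± 0.58 with an edgeR adjusted p = 0.0877. Membrane and secreted Ighm stood at 0.33 ± 0.14 and 0.26 ± 0.13.

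Igkc, the constant gene of the kappa light chain (ENSMUSG00000076609), was at 2.79, 5.81 and 6.10 CPM in the controls and at 6.98, 19.7 and 19.8 CPM in the palmitate libraries. Library 1 was the lowest of its group on both sides, and the groups did not overlap. Palmitate over control, the log2 fold change was 1.66 ± 0.48 (SE; 95% interval 0.51 to 2.81), with an edgeR adjusted p = 0.0514. With the replicate block it was 1.61, with an adjusted p = 0.000392, and within pairs palmitate was 2.50, 3.39 and 3.25 times the control. Without palmitate library 1 the group fit gave 2.01 with an adjusted p = 0.0167.

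The 13 immunoglobulin constant genes listed hold Ighm, Igha and Igkc, and 10 were in the matrix and 9 were tested. Of these 9, Igha and Ighg2b passed as higher and none as lower, and their median log2 fold change was 1.66. All 9 were positive, as were 6287 of the 12068 tested genes. Some of the 9, Ighg2b and Ighg2c among them, did not meet the filter on low counts in the controls alone. The filter could therefore favour positive values in this list. Ighg2b, of the IgG2b heavy chain, was at 0.447, 0.160 and 1.06 CPM in controls and 1.78, 3.97 and 3.04 CPM with palmitate (log2 fold change 2.37 ± 0.58, edgeR adjusted p = 0.0274). That call was lost without control library 1 (adjusted p = 0.0688), palmitate library 2 (0.0779) or palmitate library 3 (0.077). The replicate block called 6 of the 9 as higher.

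Among the other constant genes, Ighg2c of the IgG2c heavy chain had 18, 20 and 2 counts in the controls and 65, 154 and 17 in the palmitate libraries (log2 fold change 2.72, edgeR adjusted p = 0.0626, and 0.00125 with the block). Iglc2, a lambda light chain gene, stood at 1.86 (adjusted p = 0.136, and 0.00306 with the block), and 77.0% of its transcript reads were in the matrix. Ighd, Ighg1 and Ighg3, of the IgD, IgG1 and IgG3 heavy chains, had log2 fold changes of 0.55, 0.74 and 0.09 with adjusted p of 0.271, 0.476 and 0.905. Ighe, of IgE, had 4 counts in palmitate library 2 and 0 in the other 5, and was not tested. Near-identical genes of this family share reads that Salmon divides, so values of single IgG and light chain genes are uncertain to that extent.

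Reads on immunoglobulin variable segments, the part of an antibody transcript that differs between B cell clones, numbered 152, 252 and 372 in the controls and 431, 946 and 667 in the palmitate libraries. That was 5.23, 10.1 and 13.1 CPM against 17.4, 37.2 and 39.8 CPM, with no overlap, and library 1 again the lowest of its group. Of 279 segments in the matrix, 154 had a read in at least 1 library, and 45, 56 and 79 had one in the control libraries against 64, 98 and 100 in the palmitate libraries. The edgeR filter left 10 segments, of which 4 passed as higher (Ighv1-26 at 2.80, Igkv1-110 at 2.69, Igkv12-46 at 2.60 and Iglv1 at 1.57 on the log2 scale) and none as lower. Ighv1-26, Igkv1-110 and Igkv12-46 had at most 7 counts in any control library and met the filter on low counts only through the palmitate libraries, so the count of calls does not bear on the direction of the segments as a whole. The replicate block called 6 as higher, with Igkv10-96 (adjusted p = 0.0212, and 0.0903 by group) and Igkv6-32 (0.0334, and 0.307 by group) added. Each of the 4 calls by group was kept in only 1 of the 6 fits that left out a library. Ighv1-26 and Igkv1-110 were kept without control library 1, Igkv12-46 without control library 3 and Iglv1 without palmitate library 2, and in the other fits their adjusted p reached at most 0.0716, 0.101, 0.103 and 0.106.

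The deepest segments were a heavy and a light chain, Ighv11-2 and Igkv14-126, which are known as background from B-1 cells whose antibodies bind phosphatidylcholine. The last 90 coding bases of each, from GENCODE M21 (GRCm38), are shown because these 2 segments set apart the libraries by replicate number; capitals mark the codon of the cysteine near the end of the segment.
Ighv11-2-201: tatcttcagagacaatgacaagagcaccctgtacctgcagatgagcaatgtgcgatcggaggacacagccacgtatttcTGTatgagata
Igkv14-126-201: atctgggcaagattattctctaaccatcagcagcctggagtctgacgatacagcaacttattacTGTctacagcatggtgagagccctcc
Ighv11-2 had 1, 41 and 53 counts in control libraries 1, 2 and 3 and 0, 70 and 56 in palmitate libraries 1, 2 and 3. Igkv14-126 had 0, 50 and 71 in the controls and 4, 57 and 30 with palmitate. Both were thus at or near 0 in library 1 of either group and present in libraries 2 and 3 of both.

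By group, Ighv11-2 had a log2 fold change of 0.76 ± 1.45 (SE; edgeR adjusted p = 0.736) and Igkv14-126 of -0.11 ± 1.33 (adjusted p = 0.961). Together they made up 0.658%, 36.1% and 33.3% of the variable segment reads in the controls and 0.928%, 13.4% and 12.9% in the palmitate libraries. The remaining segments held 5.19, 6.46 and 8.74 CPM in the controls and 17.2, 32.2 and 34.7 CPM with palmitate. The third segment by depth, Iglv1 of the lambda light chain, had 9, 14 and 20 counts in the controls and 34, 27 and 39 with palmitate. Its groups did not overlap (log2 fold change 1.57 ± 0.42, edgeR adjusted p = 0.0328).

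**Figure D4:**
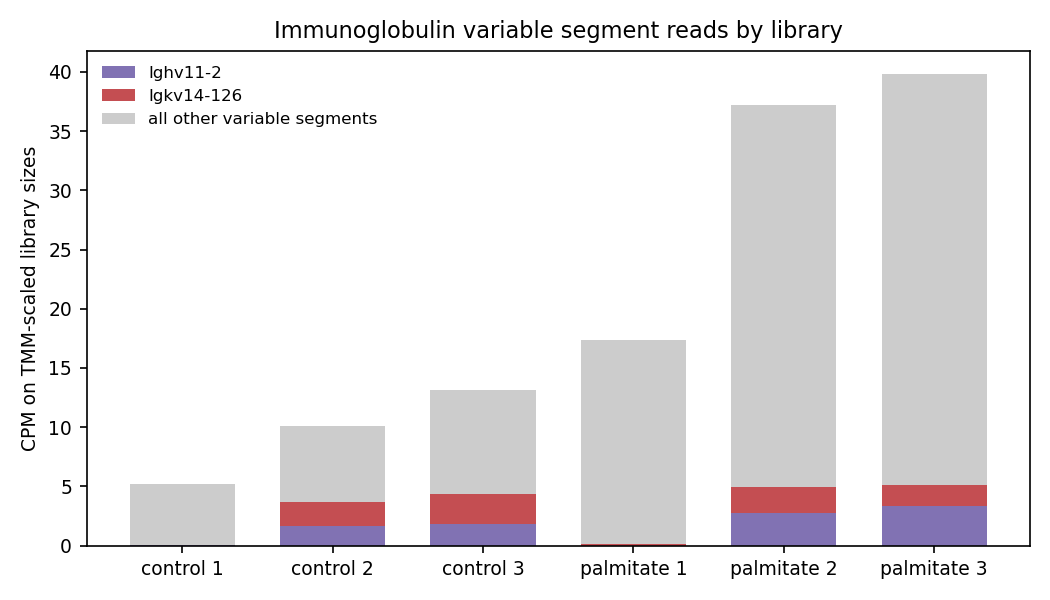
Levels on immunoglobulin variable segments in each of the 6 libraries, in CPM, for Ighv11-2, Igkv14-126 and the other segments. Ighv11-2 and Igkv14-126 are near 0 in library 1 of both groups, and the other segments hold 17.2 to 34.7 CPM with palmitate against 5.19 to 8.74 CPM in controls.

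Ighm counts outnumbered the reads on heavy chain variable segments in every library. For each read on a heavy chain variable segment there were 135, 35.5 and 32.3 Ighm counts in the controls, and 28.2, 11.99 and 11.4 in the palmitate libraries. The ratio was higher in library 1 than in libraries 2 and 3 of the same group. It is not corrected for the lengths of the genes. Its variable segment reads can also come from transcripts of Igha and the other heavy chain genes. The part that transcripts without a rearranged variable segment have in the Ighm level was not tested.

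Cd79a and Cd79b encode the paired signalling chains of the B cell receptor. Cd79a (ENSMUSG00000003379) had 4, 7 and 6 counts in the controls and 13, 20 and 20 in the palmitate libraries, or 0.138, 0.281 and 0.211 CPM against 0.524, 0.786 and 1.19 CPM. The groups did not overlap, and no library had more than 20 counts. The log2 fold change was 1.95 ± 0.47 (SE; 95% interval 0.88 to 3.02; edgeR adjusted p = 0.0226), higher in 3 of 3 pairs, but the gene met the filter on low counts only through the palmitate libraries. The call was lost without control library 3 (adjusted p = 0.0863), palmitate library 2 (0.0581) or palmitate library 3 (0.0738).

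Cd79b (ENSMUSG00000040592) was at 8.43, 8.26 and 7.72 CPM in the controls and 7.99, 11.01 and 10.9 CPM with palmitate. Palmitate library 1 lay among the controls and the other two above them. Its log2 fold change was 0.29 ± 0.16 (SE; 95% interval -0.07 to 0.65; edgeR adjusted p = 0.213, and 0.191 with the block). Per length, Cd79b was at 6.77 ± 0.356 TPM in controls where Cd79a was at 0.169 ± 0.0575 TPM, so the partners were far from equal in level. With palmitate the levels were 8.63 ± 1.35 and 0.687 ± 0.260 TPM (SD, n = 3 each). The longer coding transcript Cd79b-201 held 80.4%, 56.5% and 65.6% of the gene's reads in the controls and 68.9%, 51.3% and 57.1% with palmitate, highest in library 1 of each group.

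Ms4a1 encodes CD20, a surface protein of B cells that is lost in plasma cells. The gene (ENSMUSG00000024673) was at 2.30, 3.73 and 3.98 CPM in the controls and 3.47, 5.98 and 6.62 CPM with palmitate, with palmitate library 1 inside the range of the controls. The log2 fold change was 0.68 ± 0.30 (SE; 95% interval -0.01 to 1.36; edgeR adjusted p = 0.137), and 0.67 with an adjusted p = 0.0172 under the replicate block. Within pairs palmitate was 1.51, 1.60 and 1.66 times the control.

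The reads of Ms4a1 divided between its coding transcript and a form with a retained intron. The coding Ms4a1-201 had 12.8, 46.8 and 59.1 reads in the controls and 22.0, 84.3 and 61.2 with palmitate, lowest in library 1 of each group. The retained-intron Ms4a1-202 had 49.8, 45.8 and 50.1 reads in the controls and 61.2, 64.9 and 47.5 with palmitate, with no such dip in library 1. The coding form therefore held 19.2% and 25.8% of the gene's reads in libraries 1 of control and palmitate, and 50.5% to 55.5% in the other 4.

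Mzb1 encodes a chaperone of the endoplasmic reticulum found in marginal zone B, B-1 and plasma cells. The gene (ENSMUSG00000024353) had 0, 0 and 22 counts in the controls and 0, 34 and 28 in the palmitate libraries. A count of 0 allows up to 0.103 CPM in control library 1, 0.120 CPM in control library 2 and 0.121 CPM in palmitate library 1, and the other libraries stood at 0.775, 1.34 and 1.67 CPM. The fitted log2 fold change of 1.87 ± 1.62 (SE; edgeR adjusted p = 0.444) depends on which libraries are at 0 and ran from 1.28 to 7.58 when 1 library was left out. In pair 3, where both libraries had counts, palmitate was 2.15 times the control.

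Cd74, the invariant chain that escorts class II molecules, is made by B cells and by other antigen-presenting cells. The gene (ENSMUSG00000024610) was at 25.9, 18.2 and 18.8 CPM in the controls and 25.3, 33.7 and 40.7 CPM with palmitate. Palmitate library 1 lay just below control library 1, and the other two stood above all controls. The log2 fold change was 0.66 ± 0.20 (SE; 95% interval 0.18 to 1.13; edgeR adjusted p = 0.0544, and 0.150 with the block). Its main coding transcript, Cd74-201, held 90.3% to 95.5% of the reads in every library. The gene passed without control library 1 (0.84, adjusted p = 0.0246) and without palmitate library 1 (0.82, adjusted p = 0.0321).

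The class II list of 11 genes includes Cd74, and 9 of the 11 were tested. H2-Ob and H2-DMa passed as higher and none as lower, where the group fit called 11.1% of all tested genes as higher. All 9 had a positive log2 fold change, as had 6287 of the 12068 tested genes, and the median was 0.77. H2-Ob, a chain of the H2-O modulator of peptide loading made mainly by B cells, was at 1.79, 1.48 and 1.06 CPM in the controls and 7.785, 3.54 and 3.52 CPM with palmitate (log2 fold change 1.78 ± 0.37, edgeR adjusted p = 0.0151). In this gene palmitate library 1 was the highest. The call was lost without control library 2 (adjusted p = 0.0534) or control library 3 (0.0691).

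H2-DMa, a chain of the peptide-loading factor H2-DM, had a log2 fold change of 1.46 ± 0.34 (edgeR adjusted p = 0.0204), but the matrix held only 9.23% of its transcript reads. From the transcript tables it was at 22.9, 15.1 and 20.1 TPM in the controls and 38.6, 42.9 and 55.8 TPM with palmitate (log2 fold change on summed transcripts 1.19 ± 0.21, edgeR adjusted p = 0.00707). The matrix call was lost without control library 2 (adjusted p = 0.0646), palmitate library 1 (0.0647) or palmitate library 3 (0.0669). H2-Eb1, a class II beta chain with 0.621% of its reads in the matrix, was at 2.47, 3.89 and 4.16 TPM in the controls and 4.59, 8.87 and 10.2 TPM with palmitate, and passed on summed transcripts (1.15 ± 0.35, adjusted p = 0.043).

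The remaining class II genes did not pass in the group fit. H2-Aa and H2-Ab1, the chains of the I-A molecule, had log2 fold changes of 1.07 (edgeR adjusted p = 0.0591) and 0.80 (0.154), and passed with the block (0.0284 and 0.0148). H2-Oa stood at 0.77 (adjusted p = 0.0883, and 0.0419 with the block) and Ciita, the class II transactivator, at 0.67 (0.133). H2-DMb1 and H2-DMb2 stood at 0.26 and 0.12 with adjusted p of 0.686 and 0.85, H2-DMb2 at 0.73 on summed transcripts (0.152), and H2-Eb2, with 1 to 12 counts per library, was not tested. The matrix held 51.0% of the reads of H2-Ab1 and 47.4% of those of H2-DMb2.

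Other B cell genes, 22 for identity and receptor signalling, were measured beside the 9. Of 15 tested, 0 passed by edgeR, 0 by DESeq2 and 0 by limma-voom (the latter fits called 26.3% and 22% of all tested genes). At an unadjusted p under 0.05, 5 were higher, but no share of all tested genes at that threshold was computed. The replicate block called 3 as higher (Blk, Cd40 and Cd37), and the fit on summed transcripts 2 of 16 (Blk, adjusted p = 0.0433, and Cd37, 0.0487). The median log2 fold change of the 15 was 0.49, with 13 of 15 positive, as were 6287 of the 12068 tested genes. Some of the 15, Blk and Bank1 among them, met the filter on low counts only through the palmitate libraries. The filter could therefore favour positive values in this list. The smallest adjusted p belonged to Blk, a kinase of the receptor (1.69, adjusted p = 0.054, and 0.0261 with the block), then Cd40, a receptor for T cell help (0.68, 0.0699, and 0.0433 with the block), Bank1, a scaffold (2.02, 0.097), and Btk, a kinase (0.61, 0.122). The matrix held 39.8% of the reads of Bank1, which stood at 0.41 on summed transcripts (adjusted p = 0.536), and 40.6% of those of Cd37.

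No gene of the plasma cell and antibody secretion list passed in the gene matrix. Of its 16 genes, 14 were tested and 0 passed in the group fit by edgeR, and the median log2 fold change was -0.12. At an unadjusted p under 0.05, 5 were lower, but no share of all tested genes at that threshold was computed. DESeq2 called 4 lower, limma-voom 0, and the replicate block 4 lower. In either direction these fits called 26.3%, 22% and 33.1% of all tested genes. The smallest adjusted p belonged to Pim2, a kinase (-0.23, adjusted p = 0.0576), Prdm1, the regulator Blimp-1 (-0.66, 0.0631), Txndc5 (-0.19, 0.0635) and Fkbp11 (-0.75, 0.0698), factors of protein folding. Those lower with the block were Pim2 (0.0231), Prdm1 (0.0203), Fkbp11 (0.0142) and Ell2, an elongation factor (-0.78, 0.0022, and 0.0815 by group). On summed transcripts Pim2, Prdm1 and Txndc5 passed as lower (adjusted p = 0.0398, 0.0484 and 0.0489) and 1 gene, Derl3, as higher. Activated T cells also express many genes of this list, so its summed level, 1829 to 1994 CPM in all 6 libraries, is not specific to secreting cells.

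Of the genes that define plasma cells, Tnfrsf17, the survival receptor BCMA, had 0 reads in all 6 libraries. Sdc1, the surface marker CD138, had a log2 fold change of -0.43 (edgeR adjusted p = 0.172). Derl3, a factor of protein disposal abundant in secreting cells, was listed at 0 counts in the matrix, while the transcript tables put it at 0.849, 0.649 and 0.760 TPM in the controls and 2.43, 1.81 and 1.86 TPM with palmitate. On summed transcripts its log2 fold change was 1.26 ± 0.31 (edgeR adjusted p = 0.0181, against 25.8% of genes called by that fit).

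Per length, Ighm stood first in both groups, at 130.3 ± 24.5 TPM in controls and 170.6 ± 8.83 TPM with palmitate. In the controls Cd74 (19.3 ± 3.78 TPM) and Igkc (13.9 ± 5.04 TPM) came next and overlapped in their spread, followed by Cd79b (6.77 ± 0.356 TPM). Igha (2.22 ± 1.097), Jchain (1.72 ± 0.505) and Ms4a1 (1.69 ± 0.348 TPM) lay within each other's spread, above Mzb1 (0.441 ± 0.765) and Cd79a (0.169 ± 0.0575 TPM), which did too. With palmitate Igkc (45.9 ± 21.4) came before Cd74 (31.0 ± 6.25), and Igha (20.9 ± 11.6) and Jchain (10.8 ± 2.89) before Cd79b (8.63 ± 1.35 TPM), neighbours whose spreads overlapped in each case. Ms4a1 (2.78 ± 0.712) and Mzb1 (1.73 ± 1.57 TPM) followed, with Cd79a (0.687 ± 0.260 TPM) last again.

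Markers of other cells moved in part with the same groups. Of 15 dendritic cell and macrophage markers 6 were tested and 0 passed by edgeR (0 also by DESeq2 and by limma-voom, and 0 at an unadjusted p under 0.05). Their sum was 14.8 to 19.7 CPM in controls and 14.8 to 22.8 CPM with palmitate, and C1qa, C1qb and Cd209a were at 0. Of 7 erythroid and platelet markers 5 were tested and 1 passed, the beta globin gene Hbb-bs (log2 fold change 1.92 ± 0.34, edgeR adjusted p = 0.009). The alpha globin gene Hba-a2 stood at 1.45 (0.149, and 0.0139 with the block) and Hbb-bt at 0.19 (0.823), while the platelet genes Pf4 and Ppbp stood at -0.60 (0.236) and -0.85 (0.192). The list's sum was 6.34 to 6.98 CPM in controls and 7.52 to 12.97 CPM with palmitate. Of 8 CD8 T cell markers 6 passed as higher and none as lower, where the group fit called 11.1% of all tested genes as higher. Each of these calls was lost in at least 1 of the 6 fits that left out a library. The other CD8 T cell markers had a negative log2 fold change without passing, and the median of the 8 was 0.37. The part of these cells in the levels of the 9 genes was not tested.

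Of 4 CD4 T cell markers 2 were tested and 1 passed as higher, Zbtb7b, a regulator of the CD4 lineage (1.15 ± 0.30, edgeR adjusted p = 0.0288), a call kept in 1 of 6 fits with a library left out, that without palmitate library 1 (adjusted p up to 0.107 in the others). Of 5 natural killer cell markers 4 were tested and 0 passed by edgeR, with 1 lower at an unadjusted p under 0.05 (DESeq2 called 1 lower and limma-voom 0). The gene lower at an unadjusted p was Eomes, which CD8 T cells also make, at -0.23 (adjusted p = 0.0635, 0.022 with the block and 0.0414 on summed transcripts). Eomes held nearly all of the list's sum, at 175 ± 9.57 CPM in controls and 148.9 ± 10.7 CPM with palmitate, and Ncr1, Klrb1c and Fcgr3 stood at 0.30, 0.64 and 0.30 without passing. Of 10 pancreas markers, measured because the pancreas was among the tissues of origin, only Prss2 was tested, at a log2 fold change of -0.005, and the sum stayed between 0.983 and 1.85 CPM. Beside these, the 9 genes summed to 271, 195 and 230 CPM in the controls and 309, 327 and 371 CPM with palmitate, and Ighm made up most of both.

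**Figure D5:**
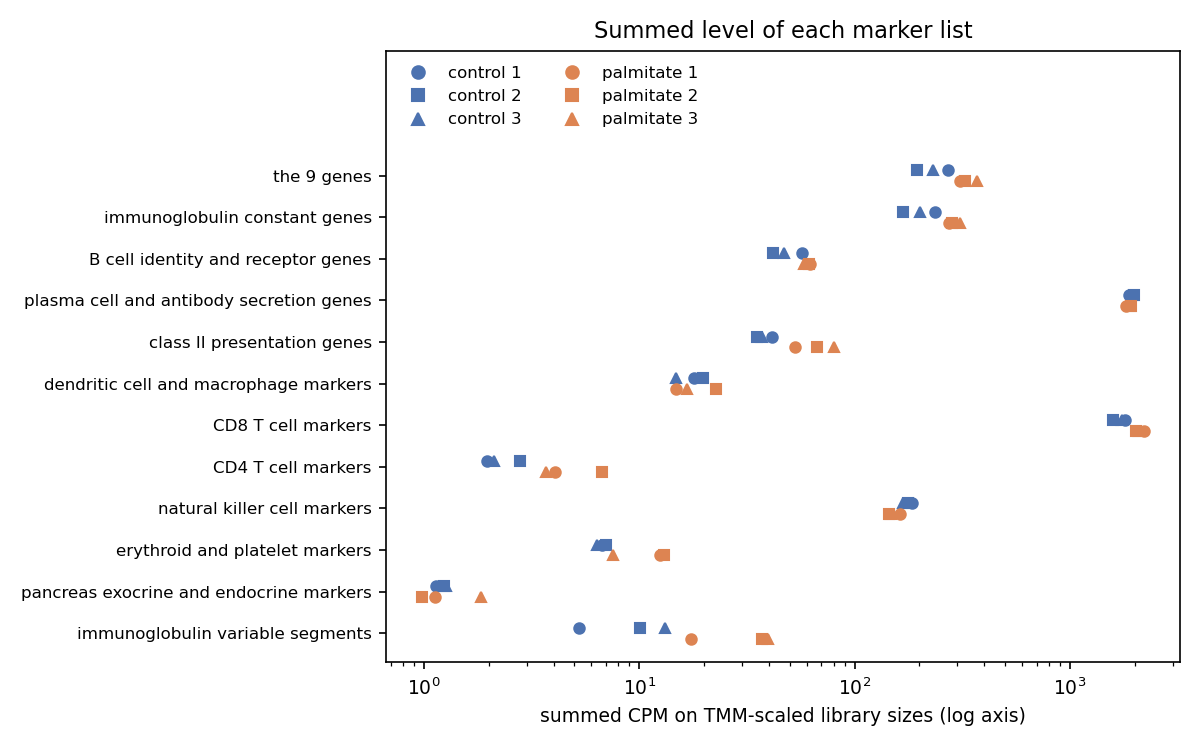
Summed level of each marker list in each library, in CPM on a log axis, with controls and palmitate side by side. Among others, the 9 genes, the class II genes and the variable segments do not overlap between the groups, while the plasma cell list holds 1829 to 1994 CPM in all 6 libraries.

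Of the 2 called genes with a RefSeq promoter entry, the 250 bases before the start are given (build GRCm38.p6, 5′ to 3′ on the gene's strand), since these genes were called higher together. They were searched on both strands for the octamer ATTTGCAT, the EBF1 core CCCNNGGG and the E-box CAGGTG, motifs of B cell factors, which 1.60%, 11.8% and 17.2% of 32851 promoter windows of this length hold.
Jchain, chr5:88527898-88528147, minus strand: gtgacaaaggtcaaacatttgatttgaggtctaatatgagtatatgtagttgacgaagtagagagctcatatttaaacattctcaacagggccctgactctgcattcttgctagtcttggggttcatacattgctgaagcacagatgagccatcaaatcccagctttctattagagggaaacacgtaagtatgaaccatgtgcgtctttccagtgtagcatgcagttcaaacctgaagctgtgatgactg
Cd79a, chr7:24897247-24897496, plus strand: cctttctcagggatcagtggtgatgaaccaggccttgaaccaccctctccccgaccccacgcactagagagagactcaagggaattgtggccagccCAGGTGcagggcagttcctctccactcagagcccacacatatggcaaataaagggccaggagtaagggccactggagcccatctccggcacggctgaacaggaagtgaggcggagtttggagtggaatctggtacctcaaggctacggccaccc
The Jchain window held 0 exact matches. The Cd79a window held 1, an E-box 154 bases before the start, in capitals. Sites that depart from these strings were not searched for, so a window without a match may still hold a site.

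The genes whose pattern over the 6 libraries was most like that of Jchain, among 9271 tested genes with a mean log2 CPM of at least 2, were 1810058I24Rik (Pearson r = 0.9996), Hadh (0.998) and Gm12185 (0.996). For Cd79a they were Slc3a2 (0.994), Cast (0.988) and Cenpm (0.988). The 6 libraries share the 2 groups and their depths, so these values describe likeness only.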

How the data were processed

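The 9 genes and the marker lists beside them (10 lists, 111 distinct genes, 108 in the matrix; Iglc1, Iglc3 and Iglc4 were not matched) and the variable segments were chosen with earlier results of these data known. The tools named, per the submitters' processing notes, are Salmon 1.10.0, Trim Galore 0.6.10 and DESeq 1.42.0, with build GRCm39; the strand setting and the transcript-to-gene table are not given in the sources used. Estimated counts per gene, in whole numbers, were deposited by the authors as 1 matrix. Each library also has a deposited Salmon table of transcripts with expected counts, rounded here for tests, and TPM. Symbols came from GENCODE M21 (GRCm38, an earlier build) and a table of gene names: 29134 of 29370 genes and 114857 of 116224 transcripts were matched. Columns with no sample and entries naming no gene numbered 0.

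The gene tests used edgeR 4.0.16 under R 4.3.3: TMM scaling, its low-count filter, a robust quasi-likelihood fit by group, two-sided, Benjamini-Hochberg adjustment over all tested genes at 0.05. CPM used TMM-scaled library sizes. For genes, the share of all tested at an unadjusted p under 0.05 was not computed, so counts at that threshold have no background. SE, SD and n refer to 3 libraries per group. Alternatives were upper-quartile and RLE scaling, no filter, a mean of at least 1 CPM, DESeq2 1.42.0, limma-voom (limma 3.58.1), transcript sums, the replicate block and leaving out each library.

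Replicate numbers stand in the labels of both groups. Across genes, deviations from group means correlated at 0.226, 0.130 and 0.152 for control and palmitate libraries sharing a number, against -0.185 to 0.0608 for the rest, and the numbers were taken to pair the libraries because all 3 values passed 0.1; the block value stands beside a result where it changes the call. The labels do not say that libraries sharing a number belong together, so the block results rest on a pairing taken from these same data. Nor do the labels say whether the libraries are from separate animals or cultures. The p-values therefore measure only how these libraries vary, and that variation may be technical. Replicates differed by more than sampling noise (chi-square per gene 11.2 to 37.2).

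Genes named were all 9; every immunoglobulin constant and class II gene; up to 4 genes per other list with the smallest adjusted p; the 3 deepest variable segments; transcripts with a mean of at least 1 CPM; and the 3 genes most like Jchain and Cd79a. Sdc1, Cd37, Ell2, Hbb-bt, Igkv10-96, Igkv6-32, Tnfrsf17, Derl3, C1qa, C1qb and Cd209a were named after their values were seen. Values of 1 listed gene are not reported here.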

Additional observations from a re-analysis of the deposited data

How the results depend on the processing

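The 9 genes kept a positive log2 fold change in every alternative that tested them; a minimum mean of 1 CPM left out Cd79a, called by group, and Mzb1. Jchain was called under each alternative at gene level. The count of the 9 genes called, 3 by group alone, was 5 with upper-quartile scaling, 6 with DESeq2 and 6 with the replicate block, and ran from 1 (without control library 3) to 5 (without control library 1 or palmitate library 1) when a library was left out. The count over all genes, 2759, was 2703 with upper-quartile scaling, 3177 with DESeq2 and 3993 with the replicate block. It was 2680 with a mean of at least 1 CPM and 3371 on transcript sums. With a library left out it ran from 690 (without control library 3) to 3433 (without control library 1). It was 1353 without control library 2, and 1443, 1651 and 1304 without palmitate libraries 1, 2 and 3. DESeq2 called Igkc (adjusted p = 0.000353), Ighm (0.0392) and Cd74 (0.00869); upper-quartile scaling called Igkc (0.0466) and Cd74 (0.047); a mean of at least 1 CPM called Igkc (0.0492); transcript sums called Cd74 (0.0485). With no filter on low counts 1 transcript of the 9 genes was called, against 0, and the count over all transcripts in that fit was not taken. The cause of these differences was not tested.

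On TPM, the log2 ratio of summed means was 0.73 for the 9 genes (0.53 on CPM), 0.75 for the immunoglobulin constant genes (0.51) and 0.00702 for the plasma cell list (-0.05). Some uncalled genes changed sign, and the cause was not tested. They were Cd40lg (-0.0042 with DESeq2, -0.0175 with the replicate block), H2-DMb2 (-0.0345 with limma-voom), Prss2 (0.052 with upper-quartile scaling), Ighg3 (-0.12 on transcript sums), Igkv14-126 (1.04 with limma-voom, 0.0844 with the replicate block) and Ighv11-2 (-0.0442 with limma-voom). With a library left out, Cd40lg ran from -0.57 to 0.39, H2-DMb2 from -0.24 to 0.49, Prss2 from -0.38 to 0.27 and Ncr1 from -0.23 to 1.48. In the same fits Ighg1 ran from -0.67 to 1.15, Ighg3 from -0.17 to 0.72 and H2-DMb1 from -0.23 to 0.55. Igkv14-126 ran from -0.71 to 0.49 and Hbb-bt from -0.23 to 0.47. Depth limits Cd79a, at 4, 7 and 6 counts in the controls, and Mzb1, at 0 counts in control libraries 1 and 2 and palmitate library 1. It also limits most variable segments, of which the low-count filter left 10 of the 279 in the matrix.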
